A study of Mus musculus with 4 samples.

Results

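The Bcl2 family decides at the mitochondrion whether a cell lives or dies. In RNA from mouse embryonic stem cells (ESCs), 10 of its genes were looked up by symbol through their Ensembl identifiers, among the 14533 genes of the normalized count table. They were 4 pro-survival genes (Bcl2, Bcl2l1, Bcl2l2 and Mcl1), 5 BH3-only genes (Bcl2l11, Bmf, Bad, Bid and Bik) and the effector Bak1. A row was found for 8 of the 10, and all 8 passed the filter on low values, set at 50 normalized counts on average in at least one condition. Bcl2 and Bik had no row in the table and are not analysed here.

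Serum ESCs grew in medium with serum, and 2i ESCs in serum-free medium with an inhibitor of MEK (PD0325901) and an inhibitor of GSK3 (CHIR99021). Per the study's methods both media contained the cytokine LIF, and per the labels the cells had more than 20 days to adapt to their medium. The sample labels place all libraries in late G1-phase, the stretch of the cell cycle that leads up to DNA synthesis. The study's legend for its serum against 2i RNA comparison also names late G1-phase, whereas the series text names early G1-phase. The labels give no cell line. For cell sorting the study's methods describe R1 ESCs that carry FUCCI, a pair of fluorescent cell cycle reporters. Each condition had 2 libraries, 4 in all. The study's legend counts 2 biological replicates, and the series text speaks of a biological replicate. No label ties a library to a separate culture, so the p-values below measure the spread between these libraries only.

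Pro-survival proteins of the family hold back the effectors Bak and Bax, which otherwise open pores in the outer mitochondrial membrane and release cytochrome c. BH3-only proteins share only a single short domain with the rest of the family. This BH3 domain is a helix that fits into a groove of the pro-survival proteins and frees or directly activates the effectors. MEK acts through the kinase ERK, which is known to phosphorylate the Bcl2l11 protein Bim and mark it for degradation, so the inhibitor in 2i medium acts on a pathway that touches the family at the protein level. Proteins were not measured in these data.

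A stretch coding for the BH3 domain was looked for in the gene sequences. The coding sequence of each gene was searched in frame for a leucine codon, any 3 codons, a codon for glycine, alanine or serine, and an aspartate codon, the core of the BH3 domain. A single match was found in 9 of the 10 genes and none in Bcl2l2, which says only that this spelling is missing there. The same pattern stood in 32.8% of 21733 protein-coding genes, so a match alone describes the letters and does not define a domain. For the 7 genes with both a row and a match, 42 bases are shown 5′ to 3′ on the coding strand, with the capitals running from the leucine codon to the aspartate codon. Sequences came from GENCODE vM1 coding transcripts, and coordinates are in mouse build mm9.
Mcl1 (chr3:95463347-95463388, plus strand): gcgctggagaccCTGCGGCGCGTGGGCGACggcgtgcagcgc
Bcl2l1 (chr2:152655430-152655471, minus strand): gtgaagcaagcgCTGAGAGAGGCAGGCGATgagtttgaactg
Bcl2l11 (chr2:127972874-127972915, plus strand): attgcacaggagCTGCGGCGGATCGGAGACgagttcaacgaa
Bmf (chr2:118370833-118370874, minus strand): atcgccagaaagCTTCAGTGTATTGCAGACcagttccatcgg
Bad (chr19:7025270-7025311, plus strand): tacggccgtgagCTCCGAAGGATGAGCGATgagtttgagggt
Bid (chr6:120847304-120847345, minus strand): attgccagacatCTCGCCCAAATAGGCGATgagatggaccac
Bak1 (chr17:27159473-27159514, minus strand): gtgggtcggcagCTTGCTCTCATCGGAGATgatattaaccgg

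Each of these stretches lay within one exon and matched the genome sequence letter for letter. Between pairs of the 7 stretches, 15 to 24 of the 42 bases were the same. The stretches were lined up on the searched pattern, so some of these bases agree by construction. The number expected between unrelated genes was not computed. Bcl2l11 and Bmf, both BH3-only genes, shared 24, as did the BH3-only gene Bid and the effector Bak1. Mcl1 and Bid shared only 15. Of the 8 genes with a row, 3 (Bcl2l1, Bcl2l11 and Bmf) lie on chromosome 2.

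The 4 libraries held 18939401 to 26570098 whole reads, of which 46.9% to 76.3% fell on protein-coding genes. The 10 genes with most reads took 50.6% of serum replicate 1 and 17.5% of serum replicate 2, with 34.7% and 25.5% in the 2i replicates. Markers of ESCs were present throughout. All 6 (Pou5f1, Sox2, Nanog, Zfp42, Esrrb and Klf4) had a row, with 1127 to 20050 normalized counts and sums of 41076 and 50170 in serum ESCs against 42279 and 54696 in 2i ESCs. Primitive endoderm markers had 4 of 6 rows and summed to 72.0 and 109 in serum ESCs and 332 and 256 in 2i ESCs. Fibroblast markers had 2 of 6 rows and sums of 230 and 193 against 199 and 58.2, and primed epiblast markers had 3 of 4 rows and sums of 960 and 2159 against 375 and 936. The primitive endoderm sums were lower and the primed epiblast sums higher in both serum libraries than in both 2i libraries, while the ESC and fibroblast sums overlapped. Of the 3 primed epiblast genes, only 1 was higher in serum on the log2 scale and 2 were lower. Their sum therefore does not stand for each of these genes. Their part in the values below was not tested, and in bulk RNA fewer cells of a type and less RNA per cell cannot be told apart.

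To ask whether survival and death genes differ between serum and 2i ESCs in G1-phase, normalized counts of the 8 genes were compared with limma across all 13005 genes tested, with fold changes as serum over 2i on the log2(normalized count + 1) scale. A gene was called when it differed 2-fold or more with an adjusted p-value under 0.05. None of the 8 was called by limma, where the share called among all genes was 0.0154%. With the p-value left unadjusted and the same 0.05 limit on it, 0 of the 8 passed by limma, against 5.97% of all genes. DESeq2 on whole reads called 0 of the 8, where it called 1.93% of all genes. edgeR on whole reads called 0% of all genes, the 8 included, so its result says nothing about these genes in particular. Both serum values lay above both 2i values in 2 of the 8 genes, Bcl2l1 and Bcl2l11 (20.5% of all genes), and below in 0 (19.4% of all genes). In the other 6 the conditions overlapped. Fold changes were positive for 5 genes and negative for 3, with a median of 0.09 on the log2 scale beside 0.0047 over all genes tested. With 2 libraries against 2, the smallest two-sided p-value of an exact permutation test is 0.333.

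**Figure D1:**
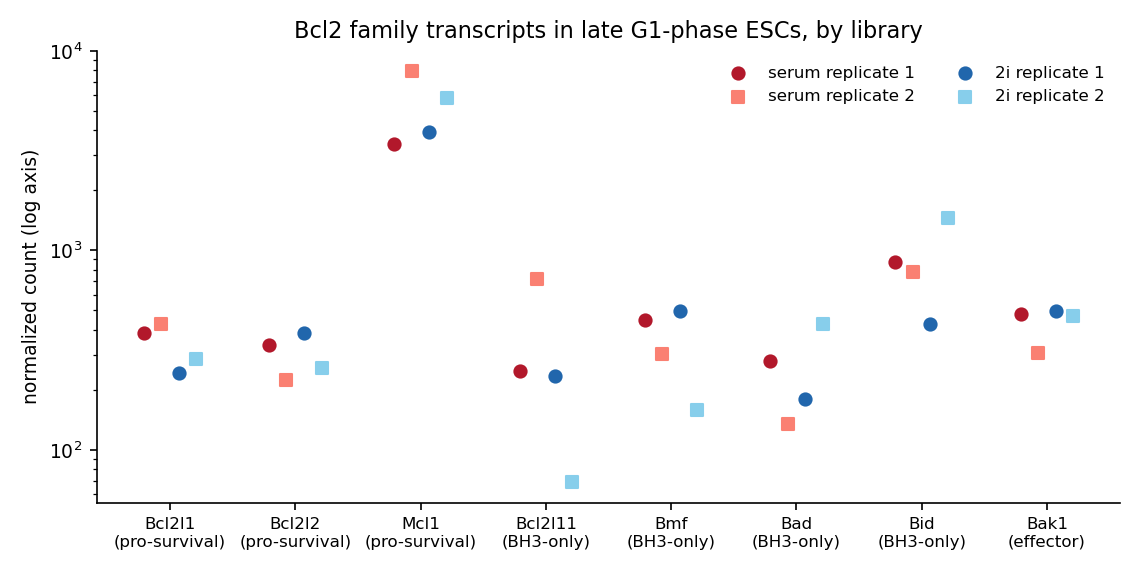
Normalized counts (log axis) of the 8 Bcl2 family genes with a row, 1 point per library, red for serum and blue for 2i, circles for replicate 1 and squares for replicate 2. Mcl1 lies above the other 7 genes at 3412 to 7893, Bcl2l1 and Bcl2l11 are the genes with both serum points above both 2i points, and the 2i points of Bcl2l11, Bmf and Bid lie over 3-fold apart.

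Among the pro-survival genes, Bcl2l1 encodes Bcl-xL and lies at chr2:152593052-152657464 on the minus strand. Normalized counts were 385 and 426 in the serum libraries, against 244 and 285 in the 2i libraries, replicate 1 first here and below. Both serum libraries were higher than both 2i libraries. Serum exceeded 2i by 0.62 on the log2 scale (SE 0.45, 95% interval -0.47 to 1.70), and it did not pass the test (limma, unadjusted p = 0.218, adjusted p = 0.764). Replicate 1 over replicate 2 was -0.14 in serum and -0.22 in 2i on the log2 scale, so Bcl2l1 was the 1 gene of the 8 whose difference between conditions exceeded both of its replicate differences. Setting each serum library against each 2i library, 4 ratios in all, gave 0.43 to 0.80 on the log2 scale. Counting error alone was 4.78% to 6.52% of the value in these libraries.

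Mcl1, at chr3:95462643-95467099 on the plus strand, encodes a short-lived pro-survival protein whose level follows its synthesis closely. Its serum libraries held 3412 and 7893 normalized counts and its 2i libraries 3903 and 5811. The serum libraries enclosed both 2i libraries, and replicate 2 was the higher in each condition. The difference was 0.12 on the log2 scale (SE 0.59, 95% interval -1.29 to 1.54, limma adjusted p = 0.971). Bcl2l2, which encodes Bcl-w and lies at chr14:55502214-55507071 on the plus strand, stood at 336 and 224 normalized counts in the serum libraries, against 385 and 257 in the 2i libraries. Here replicate 1 was the higher in each condition, by 0.59 and 0.58 on the log2 scale. Its log2 fold change was -0.20 (SE 0.51, 95% interval -1.42 to 1.03, limma adjusted p = 0.935). Of its exon bases, 13.3% are shared with Gm20521 on the same strand, a gene with no row in the table.

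Among the BH3-only genes, Bcl2l11 encodes Bim, which binds all pro-survival members and can activate the effectors directly. The gene lies at chr2:127951774-127988283 on the plus strand. Normalized counts were 249 and 719 in the serum libraries, against 236 and 68.9 in the 2i libraries. Serum replicate 2 was the highest and 2i replicate 2 the lowest, while the replicate 1 libraries were close to each other. Serum over 2i gave a log2 fold change of 1.72 (SE 0.80, 95% interval -0.22 to 3.66), the largest of the 8, and it did not pass the test (limma, unadjusted p = 0.0732, adjusted p = 0.753). The 4 single-library ratios ranged from 0.08 for the replicate 1 libraries to 3.37 for the replicate 2 libraries. Without serum replicate 2 the log2 fold change was 0.96, and without 2i replicate 2 it was 0.84 (limma adjusted p = 0.700). Without serum replicate 1 or 2i replicate 1 it was 2.49 or 2.60. The lowest library held 71 whole reads, with a counting interval of 53.8 to 86.9 normalized counts (exact Poisson, 95%), which does not reach the other values. In the replicate 1 libraries the same intervals were 219 to 282 in serum and 206 to 268 in 2i. These overlapped, so the order of the replicate 1 values lies within counting error.

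Bmf, at chr2:118354493-118375423 on the minus strand, encodes a BH3-only protein that is held at the cytoskeleton through dynein light chain. Its serum libraries held 449 and 301 normalized counts and its 2i libraries 499 and 158. The 2i libraries enclosed both serum libraries and differed 3.16-fold from each other. On average serum exceeded 2i by 0.39 on the log2 scale (SE 0.66, 95% interval -1.21 to 1.98, limma adjusted p = 0.901).

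Bad, at chr19:7016351-7026388 on the plus strand, encodes a protein that binds pro-survival members and is kept away from them in the cytosol when phosphorylated by survival kinases. The serum libraries held 279 and 135 normalized counts, and the 2i libraries 180 and 426. Within serum, replicate 1 was 2.07-fold above replicate 2, and within 2i, replicate 2 was 2.37-fold above replicate 1. The conditions overlapped. Its log2 fold change was -0.51 (SE 0.66, 95% interval -2.09 to 1.07, limma adjusted p = 0.863), the lowest of the 8. Bid, at chr6:120841948-120866871 on the minus strand, encodes the protein that caspase 8 cleaves to carry a death receptor signal to mitochondria. The serum libraries held 876 and 776 normalized counts, and the 2i libraries 426 and 1458. The 2i libraries lay on either side of both serum libraries and differed 3.43-fold. Bid had a log2 fold change of 0.07 (SE 0.65, 95% interval -1.50 to 1.63, limma adjusted p = 0.986), and it was negative at -0.055 under upper quartile scaling, -0.00024 under quantile normalization, -0.21 with edgeR and -0.20 with DESeq2.

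Bak1, at chr17:27156755-27165954 on the minus strand, encodes the effector Bak, which is anchored in the outer mitochondrial membrane. The serum libraries held 481 and 306 normalized counts, and the 2i libraries 497 and 467. Serum replicate 2 was the lowest, and serum replicate 1 lay between both 2i libraries. The difference was -0.33 on the log2 scale (SE 0.47, 95% interval -1.45 to 0.80, limma adjusted p = 0.881). Without serum replicate 2 it was -0.0013, and without serum replicate 1 it was -0.65. Exons of Bad, Bid and Bak1 overlap a gene on the opposite strand, over 25.8% of the exon bases of Bad (Gpr137), 17.7% of those of Bid (Bcl2l13) and 14.8% of those of Bak1 (Ggnbp1). Strand use in the counting is not given in the sources used here, so reads there cannot be assigned with certainty.

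**Figure D2:**
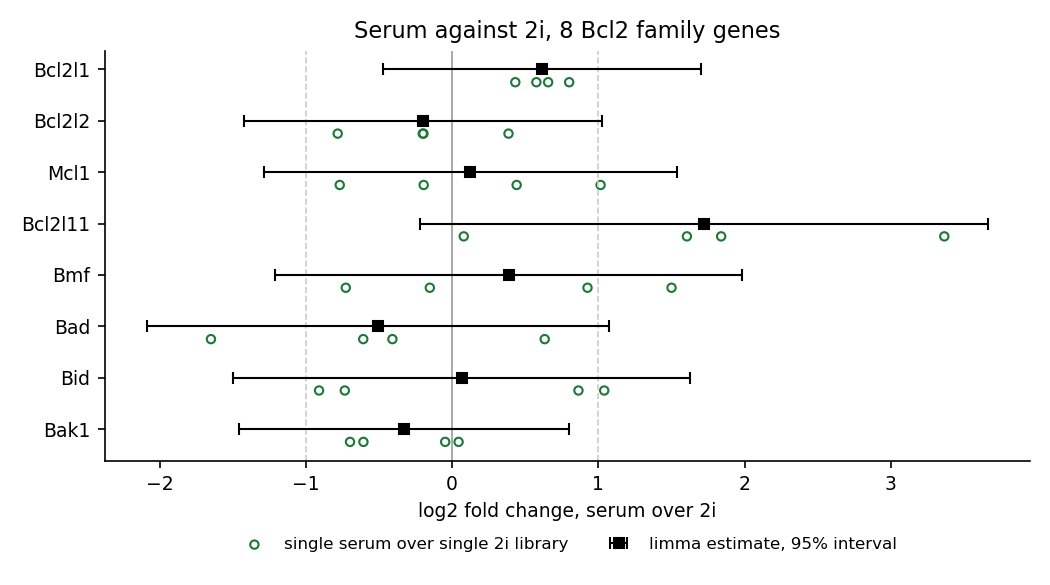
Log2 fold change of serum over 2i for the 8 genes, with the limma estimate and its 95% interval (black squares and bars) and the 4 ratios of a single serum to a single 2i library (green circles). Dashed lines mark a 2-fold change. Every interval crosses 0, and the circles of Bcl2l1 and Bcl2l11 all lie to the right of it.

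All 8 of the 95% intervals included 0. Each also reached past a 2-fold change in at least one direction, so the test leaves the size of a change, or its absence, unsettled for each of the 8 genes.

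Several genes varied as much within a condition as between conditions. The 2i replicates differed over 3-fold in 3 of the 8 genes (Bcl2l11, Bmf and Bid), and the serum replicates in 0, where the shares over all genes tested were 19.8% and 11.3%. Over 2-fold, the numbers were 4 of 8 in 2i and 3 of 8 in serum, against 38.3% and 24.2% of all genes. Replicate 1 was the higher library in both conditions for Bcl2l2, Bmf and Bak1, and replicate 2 for Bcl2l1 and Mcl1. For Bcl2l11, Bad and Bid, the replicates went opposite ways in the 2 conditions. In 2i replicate 2, Bcl2l11 and Bmf had their lowest and Bad and Bid their highest value of the 4 libraries.

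Base composition and length of transcripts moved with some of these differences. Across 11818 genes, which are not independent and share the same 4 libraries, Spearman's rho with GC content of the longest coding transcript was 0.35 for serum replicate 1 over replicate 2, -0.01 for the same difference in 2i, and -0.33 for serum over 2i. With transcript length it was -0.18, 0.30 and 0.19, respectively. Bad has a short transcript of high GC content (1451 bases and 61.3%), whereas that of Bcl2l11 is long with lower GC content (5036 bases and 48.0%). Bmf is also long, at 4642 bases and 53.7%. Bcl2l1 and Bak1 have rather short transcripts of high GC content, at 2417 bases and 56.4% and at 2387 bases and 57.1%. Bcl2l1 was higher in both serum libraries, whereas the log2 fold change of Bak1 was -0.33. Transcripts of Mcl1 (3485 bases and 49.1%), Bid (2415 bases and 51.3%) and Bcl2l2 (4008 bases and 53.4%) lay between these in GC content. The log2 fold changes of these genes were 0.12, 0.07 and -0.20. The part of composition and length in the members' values was not tested.

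**Figure D3:**
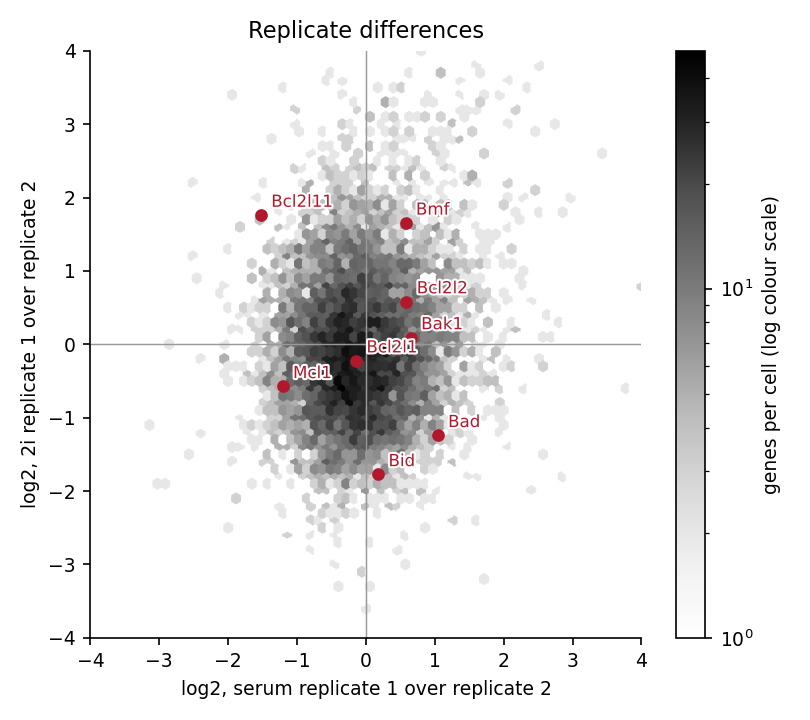
Log2 difference of replicate 1 over replicate 2 in serum (x axis) and in 2i (y axis) for the genes tested, with grey shade for the number of genes on a log colour scale and the 8 Bcl2 family genes in red. The axes leave out 813 of the 13005 genes, which lie beyond 4 on either axis. Bcl2l11 lies at the upper left and Bad at the lower right, where the replicates of the conditions differ in opposite directions.

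Per kilobase of exon, the levels of the genes can be set side by side. Mcl1 was the highest in all 4 libraries, with a mean of 1508 normalized counts per kb (979 to 2265), and its range did not overlap that of any other member. It lay between the 93.1 and 96.9 percentiles of the genes with an annotated length. Bid followed with a mean of 249 (120 to 411), Bak1 with 182 (127 to 207) and Bad with 127 (67.3 to 212). Bcl2l1 had 70.8 (51.5 to 89.9), Bcl2l2 67.3 (50.1 to 86.3) and Bmf 67.0 (30.1 to 95.1). The lowest mean was that of Bcl2l11, at 39.6 (8.58 to 89.6). From Bid downwards the ranges of neighbours in this order overlapped. Per kilobase of the longest transcript in place of all exons, the order was the same except that Bmf (75.8) stood above Bcl2l2 (75.0), with the mean of Bcl2l1 at 139, that of Bid at 366 and that of Bcl2l11 at 63.2.

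Within the roles, Mcl1 made up 86.2% and 94.2% of the summed per-kb level of the 3 measured pro-survival genes in the serum replicates, and 89.0% and 93.4% in the 2i replicates. The conditions overlapped in this share. Of the 4 BH3-only members with a row, Bid led in each library. It made up 49.1% and 50.5% of their summed level in serum and 35.9% and 62.1% in 2i. Other BH3-only genes with a row, such as Hrk, were not part of these sums. The share of Bcl2l11 was 6.17% and 20.7% in serum and 8.79% and 1.30% in 2i. That of Bmf was 17.0% and 13.3% in serum against 28.5% and 4.55% in 2i, and that of Bad 27.7% and 15.6% against 26.8% and 32.1%. None of the 4 shares separated the conditions. The summed level of the 4 BH3-only members was 0.442 and 0.180 times that of the 3 pro-survival members in serum. In 2i it was 0.265 and 0.371 times. Serum values lay on both sides of the 2i values, and the highest and lowest ratio both came from serum libraries. With Mcl1 left out of the sum, the ratio was 3.21 and 3.09 in serum and 2.42 and 5.61 in 2i.

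**Figure D4:**
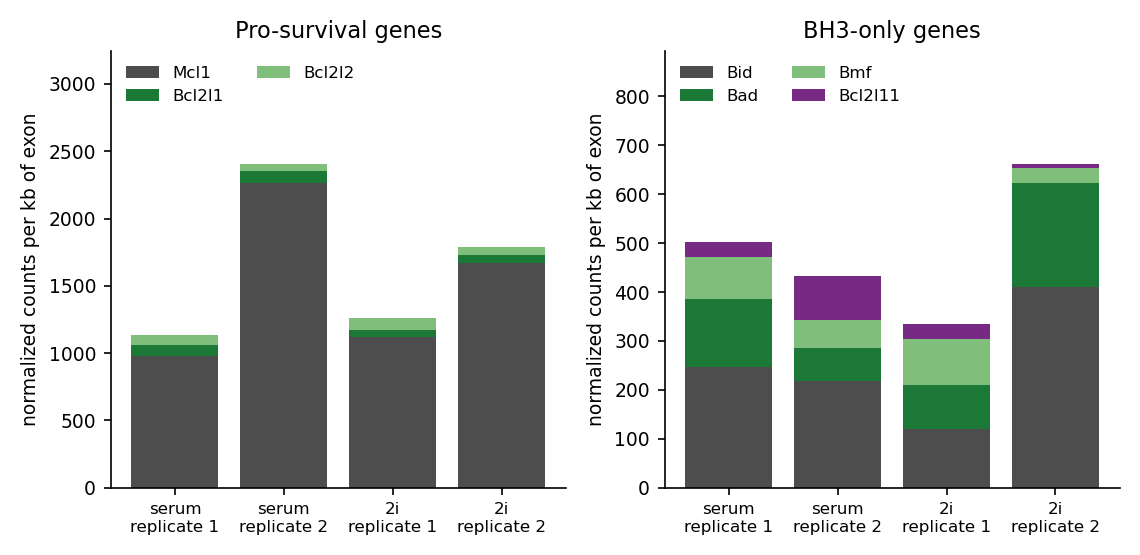
Normalized counts per kilobase of exon in each library, stacked by gene. On the left are the 3 pro-survival members with a row, on the right the 4 BH3-only members with a row. The vertical axes differ. Mcl1 fills 86.2% to 94.2% of each left bar, and Bid is the largest part of each right bar, at 35.9% to 62.1%.

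The other genes of the family and its pathway were read from 3 lists. Of 15 other Bcl2 family genes, 10 had a row, and 0 were called by limma or DESeq2, against 0.0154% and 1.93% of all genes. The median log2 fold change was 0.03, with 5 higher and 5 lower in serum. At the ends of the list were Hrk and Bcl2l14. Hrk, a BH3-only gene, had a log2 fold change of 0.92 (SE 0.68), with 206 and 254 normalized counts in the serum libraries, against 208 and 69.8 in the 2i libraries. Bcl2l14, which encodes the less studied member Bcl-G, stood at 85.0 and 41.8 in the serum libraries, against 167 and 644 in the 2i libraries. Both of its 2i libraries were higher than both serum libraries, with a log2 fold change of -2.44 (SE 0.82, limma, unadjusted p = 0.0229, adjusted p = 0.753). It was the 1 gene of this list at an unadjusted p-value under 0.05, where the share over all genes was 5.97%.

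Of the mitochondrial death pathway, which runs from cytochrome c release through the apoptosome to the caspases and their inhibitors, all 18 genes had a row. None was called by limma or DESeq2, against 0.0154% and 1.93% of all genes. By limma 0 had an unadjusted p-value under 0.05, against 5.97% of all genes. The median log2 fold change was -0.12, with 8 higher and 10 lower in serum. Both serum values lay above both 2i values in 4 genes and below in 4, where the shares over all genes were 20.5% and 19.4%. Aifm1, which encodes a flavoprotein of the intermembrane space, had the highest fold change (0.93, SE 0.46), with 1288 and 1927 normalized counts in the serum libraries against 706 and 962. Endog, which encodes a mitochondrial nuclease, had the lowest (-1.57, SE 0.80), with 69.0 and 56.4 against 97.6 and 359. In both genes the conditions did not overlap.

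Regulators and binding partners of the members were 27 genes, among them transcription factors, kinases, ubiquitin enzymes, dynein light chains, 14-3-3 proteins and death receptor components, of which 26 had a row. The median log2 fold change was 0.39, with 18 higher and 8 lower in serum. None was called by limma, against 0.0154% of all genes. In each direction 1 had an unadjusted p-value under 0.05, against 5.97% of all genes in either direction. Ddit3, which encodes the stress-induced transcription factor CHOP, known to activate Bcl2l11 transcription, stood at 145 and 94.3 normalized counts in the serum libraries, against 1258 and 418 in the 2i libraries. Both 2i libraries were higher than both serum libraries. Serum over 2i gave -2.62 on the log2 scale (SE 0.66, limma, unadjusted p = 0.00630, adjusted p = 0.753). DESeq2 called Ddit3 (adjusted p = 0.0158), the 1 gene it called in this list, where it called 1.93% of all genes. For Ddit3, limma with the replicate number as a block gave an adjusted p of 0.0129, where that fit called 1.56% of all genes. Ywhah, which encodes a 14-3-3 protein of the group that binds phosphorylated Bad, stood at 1967 and 3934 normalized counts in the serum libraries, against 946 and 1077 in the 2i libraries. Both serum libraries were the higher, with a log2 fold change of 1.46 (SE 0.50, limma, unadjusted p = 0.0252, adjusted p = 0.753).

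**Figure D5:**
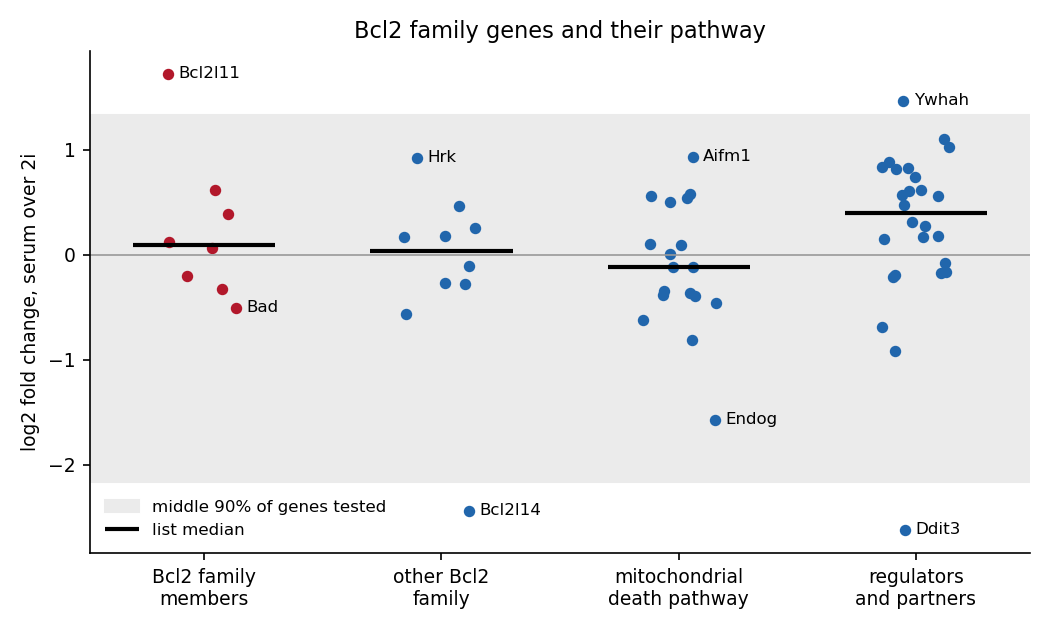
Log2 fold change of serum over 2i for the 8 Bcl2 family genes (red) and the genes of the 3 related lists (blue), 1 point per gene spread sideways for sight, with the list median as a black line. The grey band spans the middle 90% of the 13005 genes tested, from -2.16 to 1.33. The medians lie at 0.09, 0.03, -0.12 and 0.39, and Bcl2l11, Ywhah, Bcl2l14 and Ddit3 lie outside the band.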

How the data were processed

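Total RNA from sorted ESCs was sequenced in 4 libraries, 2 per condition. Per the study's methods, the authors aligned reads to mm9 with Bowtie, estimated expression with MMSeq, kept genes with at least 50 reads in either condition and normalized with DESeq2. The deposited unit is a signal: each count was divided by the size factor of its library (normalized counts). They were whole multiples of a step in each library, so that 100% came out as whole reads (tolerance 0.01). Versions are not given in the sources used here. Dividing reads among similar transcripts makes values of shared sequence uncertain. Of the members' 43-base words, 76.6% to 100% were found in no other protein-coding gene, lowest in Bad. Pseudogenes and noncoding sequence were not searched.

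Values were tested with limma 3.58.1 (R 4.3.3, variance trend, Benjamini-Hochberg over 13005 genes) on log2(normalized count + 1), which understates changes where expression is low. The filter kept genes that averaged 50 or more in at least one condition. A call needed an adjusted p under 0.05 and a log2 fold change beyond 1. Names, lengths and coordinates came from GENCODE vM1 (14462 genes matched, 71 did not). Per-length levels were divided by the union of exons. edgeR 4.0.16 and DESeq2 1.42.0 on whole reads were alternatives, since the deposited values were already scaled. The fit was tested on simulated data. Other alternatives were pseudocounts of 0.5 and 5, no filter or a mean of at least 200, 3 other scalings, the replicate number as a block, each library left out, limma without trend, and no limit on the fold change. Intervals on reads cover counting error only.

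The members and the lists were chosen with earlier results of these data known. All members are named. Of the other lists, genes called, genes with separated conditions and an unadjusted p under 0.05, and the gene at each end are named.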

Additional observations from a re-analysis of the deposited data

How the results depend on the processing

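Member calls were 0 under all 16 alternatives, and the lowest adjusted p of a member was 0.306, for Bcl2l11 with the replicate block. Of 120 member fold changes under alternatives, 107 kept their direction and 13 reversed, 9 of them on leaving out a library. Bcl2l1, Bcl2l11 and Bak1 kept it throughout, Bak1 at only -0.0013 without serum replicate 2. Bid became -0.055 under upper quartile scaling (which moved the median of all genes to -0.12), -0.00024 under quantile normalization, -0.21 with edgeR and -0.20 with DESeq2. With each library left out in turn, log2 fold changes ranged from -0.82 to 0.95 for Bid, -0.49 to 0.10 for Bcl2l2, -0.48 to 0.73 for Mcl1, -1.13 to 0.11 for Bad, -0.44 to 1.21 for Bmf, -0.65 to -0.0013 for Bak1, 0.50 to 0.73 for Bcl2l1 and 0.84 to 2.60 for Bcl2l11, and the median of the members from -0.035 to 0.26. A mean of at least 200 moved the median of all genes to 0.12. With the longest transcript as length, the per-length level of Bcl2l1 went from 70.8 to 139, that of Bcl2l11 from 39.6 to 63.2 and that of Bid from 249 to 366. Of the 8 genes, Bcl2l1 was the 1 whose level moved by more than 1 SD between replicates.

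Over all genes, calls numbered 2 in the main test, 4 with a mean of at least 200, 203 with the replicate block (44 higher and 159 lower in serum), 1 without trend, 0 with edgeR and 251 with DESeq2 (73 and 178). They ranged from 0 to 8 with a library left out, with 8 without serum replicate 1 and 0 without each of the other 3. The labels number the replicates without saying that a number marks a shared culture or day. Pearson's r of the replicate differences of the conditions was 0.48 across 13005 genes, and Spearman's rho was 0.18. Without the 813 genes beyond 4 on either axis, r was 0.13. Leaving out genes by the size of these differences narrows their range and can itself lower r. A correlation across genes of the same libraries cannot decide whether the numbers mark a pairing, so the pairing was neither shown nor excluded. The replicate block called 0 members. Members held 71 to 8120 reads per library. The interval widths rest largely on a variance shared over genes (4.41 prior of 6.41 total degrees of freedom).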
